A study of Mus musculus with 2 samples.

Results

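Heat shock proteins and endoplasmic reticulum (ER) chaperones keep other proteins folded, and their transcripts were read here in M1-like bone marrow derived macrophages (BMDMs) of wild type (WT) and folate receptor β knockout (FRβ KO) mice. The group held 36 genes of the 54532 gene identifiers in the counts table. Earlier results of these data were known when the genes were chosen. They were taken by symbol, from a list of known chaperones and unfolded protein response genes, and not by a cutoff on their values. Of these, 15 belong to the cytosolic heat shock system, 3 to mitochondria, 12 are ER chaperones and folding enzymes, and 6 are ER stress sensors or ER degradation genes. At least 10 counts over both libraries were found for 35 of them. The exception was *Hspb1*, encoding a small heat shock protein, with 0 (WT) and 2 (FRβ KO) counts, within the 3 counts that a reading of 0 still allows.

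Both groups were cultured from the marrow of male C57BL/6 mice, matured with M-CSF (20 ng/mL, 7 days) in regular RPMI medium per the labels, and turned M1-like with IFNγ (20 ng/mL) and LPS (1 ng/mL) over 24 hours. The WT mice carried intact *Folr2* and the FRβ KO mice carried the FRβ (*Folr2*) allele disrupted by an inserted neomycin resistance gene, bred from an SWV background onto C57BL/6, and the ages of the FRβ KO mice and of the mice used for sequencing were not found in the methods. WT mice of the study were purchased at 6 to 8 weeks, whereas the FRβ KO mice were bred in house. According to the methods the RNA of 3 mice was pooled per genotype, so each genotype was 1 library, no difference had a replicate check, and no p-value is given. Differences of genotype, of genetic background near *Folr2*, of the origin of the mice and of pool cannot be told apart.

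The libraries held 18871271 counts (WT) and 19742619 counts (FRβ KO), with 1.62% and 1.69% of them from mitochondrial transcripts. *Folr2* had 0 and 2 counts, so its transcript cannot serve as a check of the genotype labels here. All 7 macrophage markers on the list (*Adgre1*, *Cd68*, *Csf1r*, *Lyz2*, *Itgam*, *Fcgr1* and *Mertk*) were measured, and their summed level was 19470 CPM (counts per 1000000 scaled counts) in WT and 16930 CPM in FRβ KO. *Lyz2* made up most of both sums, and the other 6 markers summed to 3121 and 3136 CPM. The 6 neutrophil and granulocyte precursor markers summed to 36.3 and 21.3 CPM, nearly all of it from *S100a8*, and to 1.34 and 0.901 CPM without it, with *Ly6g* at 0 and 3 counts. The endothelial list summed to 17.96 and 14.02 CPM, nearly all of it from *Kdr*, and to 1.555 and 1.852 CPM without it. The dendritic cell list summed to 11.8 and 10.6 CPM, and to 4.396 and 5.106 CPM without *Zbtb46*. The T cell, B cell, mast cell, erythroid and fibroblast lists each summed to under 4 CPM. The part of these other cell types in the values below was not tested.

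As background, cytosolic chaperones of the HSP70 and HSP90 families bind unfolded or immature proteins and release them in cycles of ATP hydrolysis, helped by J-domain proteins and exchange factors. When unfolded proteins build up in the cytosol, the transcription factor HSF1 binds heat shock elements and raises the inducible members. In the ER, the sensors IRE1, ATF6 and PERK start the unfolded protein response, which raises BiP, the protein disulfide isomerases and the ER degradation machinery. Activated macrophages secrete many proteins through the ER, and chaperones are abundant in them.

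The DNA around the start of these genes was searched for the elements known for the heat shock and ER stress responses, and the matches are shown because they differ between the compartments. The windows ran from 250 bases before to 50 bases after the RefSeq gene start (GRCm38.p6), and 29 of the 36 genes had at least 1, with more than 1 annotated start for some. The 7 genes without a window, to which the matches below do not extend, were *Hspa8*, *Hsp90aa1*, *Hsp90ab1*, *Hsf1*, *Hspa9*, *Hyou1* and *Atf6*. The ER stress element was searched as CCAAT, then 9 bases of any kind, then CCACG, on both strands. It was found in 6 of 11 ER chaperone genes with a window, in 0 of the other 18 genes, and in 0.137% of all 27025 genes. The matches follow, read so that each runs from CCAAT to CCACG, with the matched stretch in capitals and flanking bases in lower case.
Hspa5: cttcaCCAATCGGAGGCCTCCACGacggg
Hsp90b1, first match: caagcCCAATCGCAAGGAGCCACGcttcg
Hsp90b1, second match: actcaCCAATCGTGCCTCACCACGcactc
Calr: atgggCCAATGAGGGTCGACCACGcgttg
Canx: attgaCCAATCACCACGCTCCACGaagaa
Dnajc3: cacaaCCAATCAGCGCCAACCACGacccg
Pdia6: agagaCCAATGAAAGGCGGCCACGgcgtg

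The heat shock element was searched as 3 alternating units, GAA and TTC with 2 bases of any kind between neighbours, starting with either unit, on both strands. It was found in *Hspd1* and *Hspe1*, the mitochondrial pair, and in *Hsph1*, and in 0.662% of all genes with a window. The looser form of 2 units, GAANNTTC or TTCNNGAA, is contained in the 3-unit form. It was found in 7 of 11 cytosolic genes, in 2 of 2 mitochondrial ones and in 0 of 16 ER genes, against 17% of all genes. The unfolded protein response element TGACGTGG was found in 0 of the 29 genes and in 0.714% of all genes. A match is a stretch of letters and not a shown binding site.

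*Hspd1* and *Hspe1* lie head to head on chromosome 1 and share 1 stretch with the heat shock element, which is shown because the pair had different values in these libraries. The window of *Hspe1*, 1:55087898-55088197 on the plus strand of GRCm38.p6, is printed with the 2 overlapping matches in capitals.
Hspe1: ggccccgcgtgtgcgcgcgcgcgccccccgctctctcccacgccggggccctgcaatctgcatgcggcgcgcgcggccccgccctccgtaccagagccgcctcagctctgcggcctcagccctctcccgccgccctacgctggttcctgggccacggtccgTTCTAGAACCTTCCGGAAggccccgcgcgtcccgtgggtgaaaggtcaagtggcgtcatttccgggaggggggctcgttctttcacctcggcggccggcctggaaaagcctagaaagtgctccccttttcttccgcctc

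The chaperone genes as a whole stood at nearly the same summed level in both libraries. Their counts summed to 117354 (WT) and 125359 (FRβ KO), which is 6292 and 6276 CPM after scaling of the library sizes by TMM (trimmed mean of M values). The KO/WT ratio of the sum was 0.998, with an exact 95% interval from the counts of 0.990 to 1.005 that covers counting error only. Of the 35 measured genes, 0 were higher in FRβ KO by more than 1.2-fold with their whole interval, against 2.73% of the 14489 genes that had 10 or more counts. *Hspe1* was the 1 gene with a whole interval below a 1.2-fold lower level, against 3.39% of all genes, and 0 of the 35 lay beyond 2-fold in either direction, against 0.718%. Among genes with 1000 or more counts over the pair of libraries, *Hspe1* was 1 of 30 chaperone genes past 1.2-fold lower, against 2.29% of all such genes. The sum over all 14489 genes had a ratio of 0.977 under TMM (0.976 to 0.978), and their median log2 ratio was -0.0028. That summed value follows from the library sizes, with FRβ KO at 1.046 times WT by total counts and 1.07 times by TMM. It is therefore given as a reference point only. The interval of the chaperone sum lies above it and holds 1.

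The intervals were narrow enough for most of the genes to place them close to 1. With the whole interval inside 1.2-fold of 1, in either direction, 25 of the 35 genes were counted, against 30.4% of all genes. Depth sets much of that share, so it was counted again in the same deep set, where 25 of 30 chaperone genes and 69.1% of all 5846 genes lay inside 1.2-fold. There the interval lay wholly above 1 for 7 of the 30 genes (21.8% of all genes) and wholly below 1 for 5 (23.4%). Over all 35 genes these numbers were 8 (15.0%) and 5 (16.6%).

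**Figure D1:**
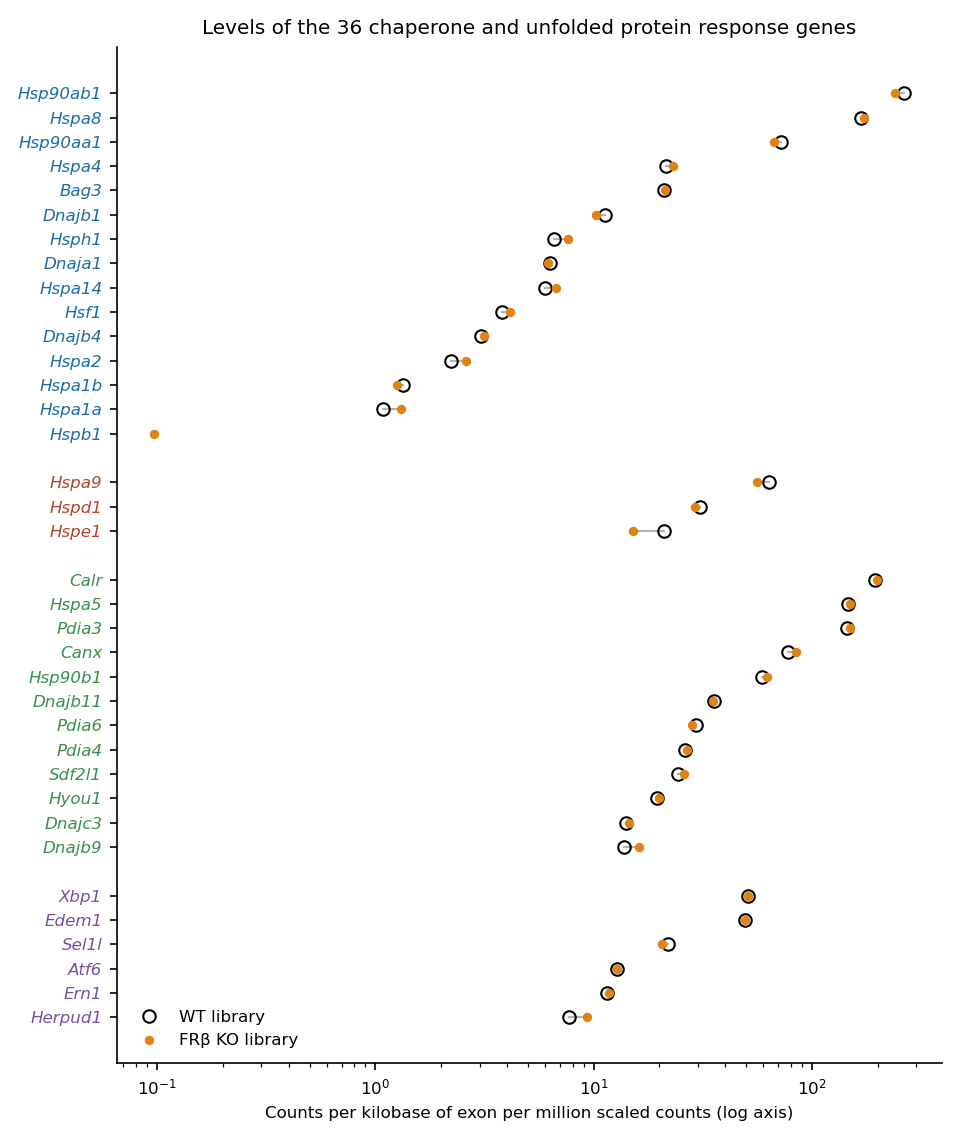
Level of each of the 36 genes in the WT library (open circles) and the FRβ KO library (filled circles), in CPM per kilobase of exon on a log axis, by compartment and in the order of the WT level; label colours mark cytosolic heat shock (blue), mitochondrial (red), ER chaperone (green) and ER sensor and degradation genes (purple). The circles lie close together, with the widest gap at *Hspe1* (21.1 in WT and 15.2 in FRβ KO), and *Hspb1*, at 0 counts in WT, has 1 circle.

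Within the 36 genes, the most abundant transcripts per length came from constitutive chaperones of the cytosol and the ER. *Hsp90ab1*, the constitutive cytosolic HSP90, stood highest, at 265.8 CPM per kilobase of exon in WT and 240.1 in FRβ KO. *Calr*, the calcium-binding lectin chaperone calreticulin, followed at 194.0 and 199.4, and *Hspa8*, the constitutive HSP70, at 167.6 and 172.6. *Hspa5*, encoding BiP, the HSP70 of the ER, stood at 146.3 and 148.9, next to *Pdia3*, a disulfide isomerase that works with calreticulin, at 145.5 and 148.9. The level of *Hspa5* was 1.005 times that of *Pdia3* in WT (0.977 to 1.03), so these neighbours did not differ beyond counting error. The other steps of this order did in both libraries. Counting error leaves out the choice of length, here all annotated exons merged, and the order depends on it. Without division by length, *Hspa8* (720.8 CPM in WT) and *Hspa5* (618.5 CPM) stood above *Calr* (558.8 CPM). At the low end, the inducible HSP70 genes *Hspa1a* and *Hspa1b* stood at 1.08 and 1.34 in WT and 1.32 and 1.25 in FRβ KO, over 100 times below *Hspa8* in either library.

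Among the cytosolic HSP70 genes, the abundant and the inducible members both stayed close to their WT level. *Hspa8* had 13445 (WT) and 14827 (FRβ KO) counts (KO/WT ratio 1.03, 1.01 to 1.05). *Hspa1a* had 60 and 78 counts and *Hspa1b* 70 and 70, with intervals that hold 1. Since these genes lie in tandem on chromosome 17 and are near-identical copies, reads can be divided between them. Together they had 130 (WT) and 148 (FRβ KO) counts (ratio 1.06, 0.834 to 1.36), so a difference of 1.5-fold would have lain outside the interval. *Hspa2*, an HSP70 best known from male germ cells, had 109 and 138 counts (ratio 1.18, 0.913 to 1.53).

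Of the HSP70 exchange factors and relatives, *Hsph1* and *Hspa4* were slightly higher. *Hsph1*, encoding HSP110, which reloads HSP70 with nucleotide, had 893 and 1112 counts (ratio 1.16, 1.06 to 1.27). Its ratio was 1.13 times that of *Hspa8* (1.03 to 1.24), a comparison that does not depend on the scaling. *Hspa4*, another HSP110-type exchange factor, had 2205 and 2544 counts (ratio 1.08, 1.02 to 1.14). *Hspa14*, an HSP70-like protein of the ribosome, had 451 and 546 (ratio 1.13, 0.996 to 1.28), and shares 321 exonic bases with the overlapping gene *Gm45902*. *Bag3*, a nucleotide exchange factor that also directs clients to autophagy, stood at 1006 and 1086 counts (ratio 1.01, 0.924 to 1.099).

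The cytosolic HSP90 genes were the members of this system with an interval below 1. *Hsp90ab1* had 14867 (WT) and 14381 (FRβ KO) counts (ratio 0.903, 0.883 to 0.924). *Hsp90aa1*, the inducible form, had 5276 and 5272 (ratio 0.933, 0.898 to 0.970). The inducible and the constitutive form moved alike within counting error, with a ratio of their ratios of 1.03 (0.988 to 1.08). The ER paralog *Hsp90b1*, encoding GRP94, had 4445 and 5021 counts (ratio 1.05, 1.01 to 1.098) and thus lay on the other side of 1. Relative to *Hsp90b1*, the ratio of *Hsp90ab1* was 0.856 (0.817 to 0.897) and that of *Hsp90aa1* 0.885 (0.836 to 0.935). Both differences exceeded counting error, and neither can be set against a spread between pools.

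The J-domain proteins of the cytosol, which hand clients to HSP70, and *Hsf1*, the master regulator of the heat shock response, had intervals that hold 1. *Dnajb1*, the HSF1-induced HSP40, had 673 (WT) and 654 (FRβ KO) counts (ratio 0.907, 0.814 to 1.01). *Dnaja1* had 1012 and 1060 (ratio 0.978, 0.896 to 1.07), and *Dnajb4* had 500 and 552. *Dnaja1* shares 608 exonic bases with *Smu1* on the other strand, and the strand setting of the counting is not given, so part of its counts may belong to *Smu1*. *Hsf1* itself had 506 and 586 counts (ratio 1.08, 0.958 to 1.22). Of the 14 measured cytosolic genes, intervals were above 1 for 3, below 1 for 2 and held 1 for 9. Among all genes, 15.0% of intervals lay above 1 and 16.6% below.

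The cytosolic genes together had a summed ratio of 0.975 (0.962 to 0.989), from 41073 and 42908 counts, an interval that holds the all-gene value of 0.977, while the median log2 ratio of its measured members was 0.04, with 9 genes above 1 and 5 below by point ratio. The sum and the median differed in sign because *Hsp90ab1*, below 1, has the most counts of the group. Without *Hsp90ab1* the summed ratio was 1.02 (0.999 to 1.03), and with scaling by total counts it was 0.999.

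**Figure D2:**
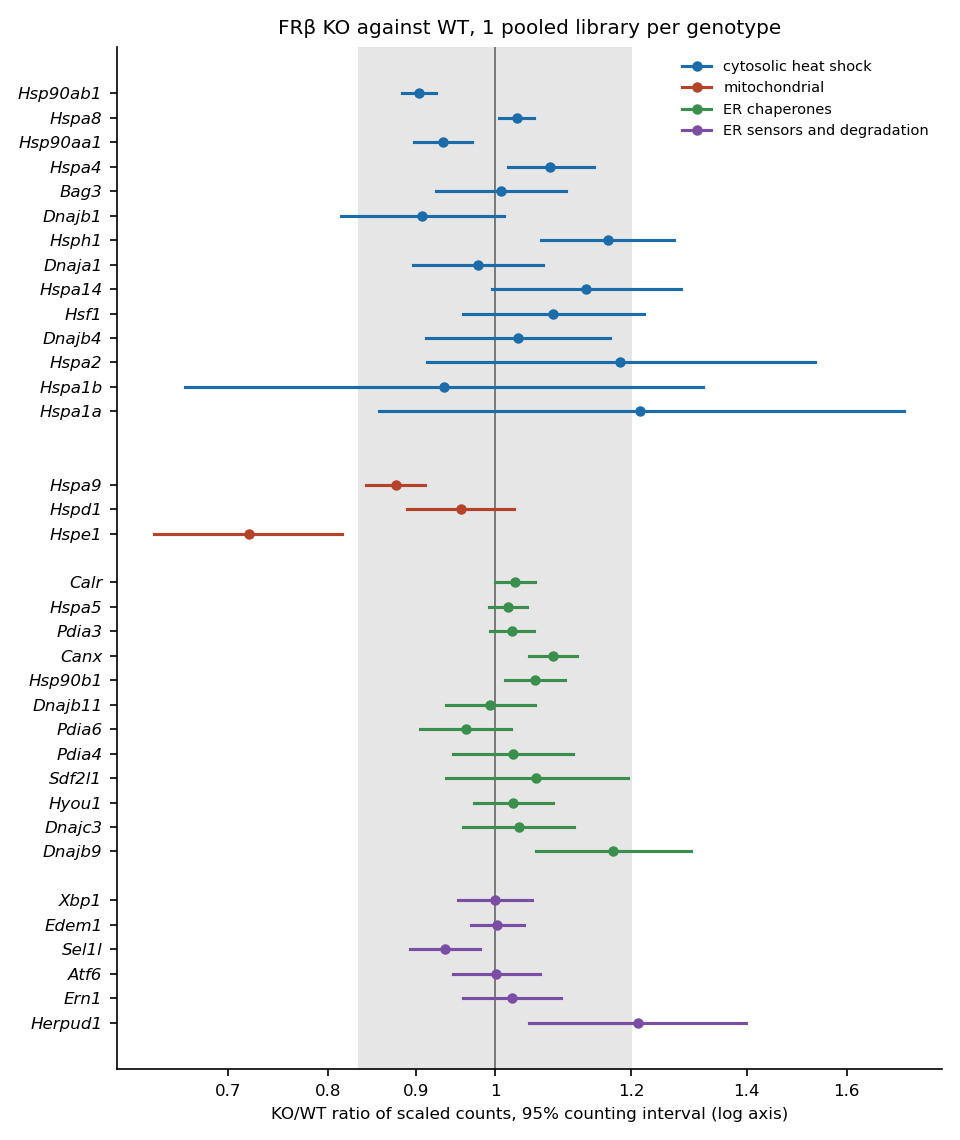
KO/WT ratio of scaled counts for the 35 measured genes (points) with the exact 95% counting interval (bars) on a log axis, by compartment, 1 library per genotype; the grey band marks 1.2-fold in either direction. Only *Hspe1*, at 0.719 (0.634 to 0.815), lies wholly outside the band, and 25 of the genes lie wholly inside it.

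Of the mitochondrial chaperones, *Hspe1* and *Hspa9* were lower in the FRβ KO library. *Hspe1*, encoding HSP10, the lid of the chaperonin that folds imported proteins in the matrix, had 579 (WT) and 446 (FRβ KO) counts (ratio 0.719, 0.634 to 0.815). *Hspd1*, encoding HSP60, the barrel that this lid closes, had 1509 and 1544 counts (ratio 0.955, 0.889 to 1.03). *Hspa9*, encoding mortalin, the mitochondrial HSP70 that pulls proteins through the inner membrane, had 5128 and 4808 (ratio 0.875, 0.841 to 0.911). The levels in WT and FRβ KO were 31.0 and 22.3 CPM for *Hspe1*, 274.9 and 240.7 CPM for *Hspa9*, and 80.9 and 77.3 CPM for *Hspd1*, whose interval holds 1.

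*Hspe1* and *Hspd1*, whose products work in 1 complex and whose genes share the stretch of DNA printed above, did not keep the same ratio. The ratio of *Hspe1* was 0.753 times that of *Hspd1* (0.651 to 0.870). The genes also share 112 exonic bases on opposite strands, so reads there cannot be told apart without strand. With scaling by total counts the interval of *Hspe1* was 0.649 to 0.835, which ends its place past 1.2-fold. *Hspe1* has 1474 exonic bases. Of the 468 protein-coding genes with fewer than 1500 exonic bases and at least 200 counts, 8.55% lay wholly below a 1.2-fold lower level, with a median log2 ratio of -0.099. Of the 1795 genes with at least 8000 exonic bases the share was 1.67% and the median 0.04. A lower ratio thus went with fewer exonic bases across the libraries, and the part of this in the value of *Hspe1* was not tested. Exonic bases are those of all annotated exons of a gene merged, and not the length of 1 transcript. *Sdf2l1*, with 1108 exonic bases, had a ratio of 1.06.

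As a group the 3 mitochondrial genes had 7216 and 6798 counts (ratio 0.880, 0.851 to 0.909), and all 3 point ratios were below 1 with TMM and with each other scaling tried. Set against the cytosolic genes their summed ratio was 0.902 (0.870 to 0.935), and against the ER chaperones 0.852 (0.823 to 0.883). Within the HSP70 family, the ratio of *Hspa9* was 0.850 times that of *Hspa8* (0.812 to 0.890) and 0.860 times that of *Hspa5* (0.820 to 0.901). These comparisons between genes are free of the library scaling.

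**Figure D3:**
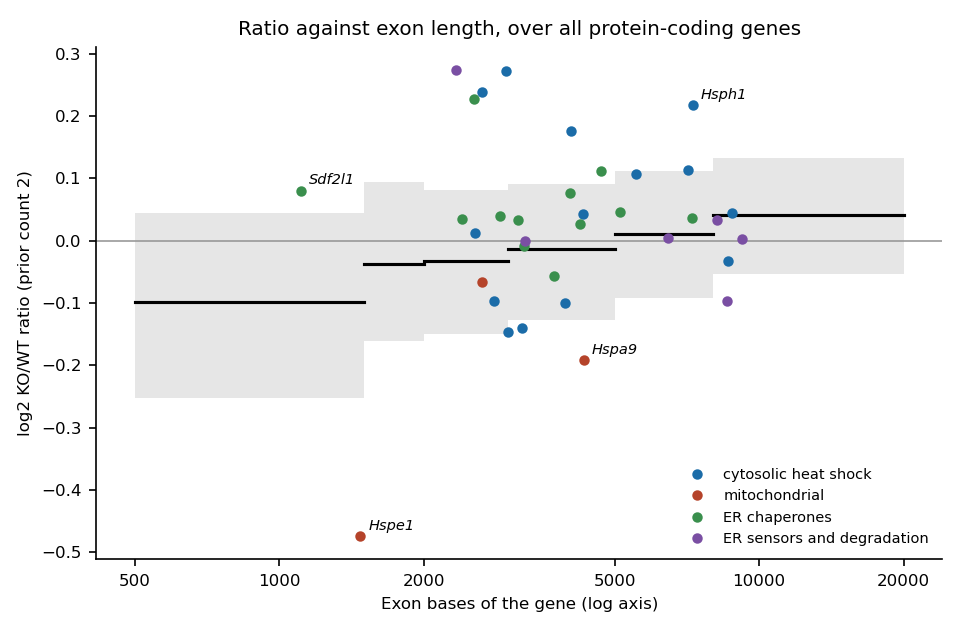
log2 KO/WT ratio (prior count 2) of the 35 measured genes (points, coloured by compartment) against their exonic bases on a log axis, over the median (black lines) and the middle 50% (grey) of all protein-coding genes with at least 200 counts in 6 classes of exon length, with the outermost classes cut off at the ends of the axis. The class medians rise from -0.099 below 1500 bases to 0.04 at 8000 bases and above, and *Hspe1* (-0.47) lies below the middle 50% of its class.

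The ER chaperones were the group with the least spread. Of the 12 genes, 10 had a point ratio above 1 and 2 below, all between 0.961 and 1.17, and the summed ratio was 1.03 (1.02 to 1.04) from 52244 (WT) and 57738 (FRβ KO) counts. *Hspa5*, the transcript most often read as a sign of ER stress, had 11537 and 12579 counts (ratio 1.02, 0.993 to 1.04), and its interval lay above 1 with scaling by total counts (1.016 to 1.069). Its neighbours in function, the lectin chaperones that hold glycoproteins in the folding cycle, were *Calr* with 10423 and 11469 (ratio 1.03, 1.00 to 1.06) and its membrane-bound partner *Canx*, calnexin, with 6822 and 7892 (ratio 1.08, 1.05 to 1.12). Intervals wholly above 1 were found for 4 of them, *Canx*, *Hsp90b1*, *Dnajb9* and *Calr*, whose lower limit was 1.00, and below 1 for 0, against 21.8% and 23.4% of all genes with 1000 or more counts.

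Disulfide isomerases form and reshuffle disulfide bonds, and those in the ER chaperone group stayed within a few percent of WT by point ratio. *P4hb* and *Pdia5*, outside the group, were lower and are described below. *Pdia3* had 8520 (WT) and 9335 (FRβ KO) counts (ratio 1.02, 0.993 to 1.05). *Pdia4* had 1169 and 1283 (ratio 1.02, 0.946 to 1.11) and *Pdia6* 2057 and 2118 (ratio 0.961, 0.904 to 1.02). *Hyou1*, the large exchange factor of BiP, had 2621 and 2877 counts (ratio 1.02, 0.972 to 1.08), and *Sdf2l1*, a stress-induced partner of the BiP cycle, 506 and 573 (0.937 to 1.19). None of these 5 intervals excluded 1.

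Of the ER J-domain proteins, *Dnajb9* was the member with an interval above 1. *Dnajb9*, encoding ERdj4, a BiP cofactor that also restrains the sensor IRE1, had 656 (WT) and 823 (FRβ KO) counts (ratio 1.17, 1.06 to 1.30). Relative to *Hspa5* its ratio was 1.15 (1.03 to 1.28). *Dnajb11*, which brings unfolded proteins to BiP, had 2145 and 2283 counts (ratio 0.994, 0.936 to 1.05), and *Dnajc3*, encoding the cochaperone P58IPK, had 1343 and 1485 (ratio 1.03, 0.958 to 1.11). *Dnajb9* has no ER stress element of the searched form in its window, while *Dnajc3* has 1.

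The 6 genes with an ER stress element printed above spanned ratios from 0.961 (*Pdia6*) to 1.08 (*Canx*), and the other 6 ER chaperone genes, of which 5 had a window, from 0.994 (*Dnajb11*) to 1.17 (*Dnajb9*). The ranges overlap. The cytosolic genes had a summed ratio 0.945 times that of the ER chaperones (0.928 to 0.962), and the ER sensor and degradation genes 0.964 times (0.941 to 0.987).

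Of the ER sensor genes in the group, *Ern1* and *Atf6* had ratios next to 1, as did *Xbp1*. *Eif2ak3*, encoding the sensor PERK, and *Atf4* belong to a separate list described below. There the interval of *Eif2ak3* held 1 and that of *Atf4* lay below 1. *Xbp1*, encoding the transcription factor that IRE1 activates by splicing its RNA, had 3083 (WT) and 3302 (FRβ KO) counts (ratio 1.00, 0.952 to 1.05). Gene counts do not separate its spliced from its unspliced form. *Ern1*, encoding IRE1 itself, had 1753 and 1921 counts (ratio 1.02, 0.959 to 1.09), and *Atf6*, the sensor that is cut in the Golgi to release a transcription factor, had 2210 and 2372 (ratio 1.00, 0.945 to 1.06). Each of these 3 intervals lay within 1.2-fold of 1.

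The degradation genes of the group differed a little more. *Edem1*, which marks misfolded glycoproteins for removal, had 5936 and 6376 counts (ratio 1.00, 0.968 to 1.04). *Sel1l*, the adaptor of the membrane ubiquitin ligase complex, had 3504 and 3510 (ratio 0.935, 0.892 to 0.980). *Herpud1*, a stress-induced scaffold of the same complex, had 335 and 434 counts (ratio 1.21, 1.05 to 1.40), the highest ratio of the 6 and 1.19 times that of *Hspa5* (1.03 to 1.38). Summed over the group, 16821 and 17915 counts gave a ratio of 0.994 (0.974 to 1.02).

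Further genes of these pathways were read from lists that the 36 genes do not overlap. Of 26 measured cytosolic chaperones and co-chaperones, intervals were above 1 for 2, *Ptges3*, encoding the HSP90 cochaperone p23 (1055 and 1322 counts, ratio 1.17, 1.08 to 1.27), and *Hspa4l*, a further HSP110-type gene (2625 and 3144, ratio 1.12, 1.06 to 1.18). It lay below 1 for 1, *Fkbp4*, an immunophilin partner of HSP90 (328 and 294, ratio 0.837, 0.713 to 0.983), and held 1 for 23. *Stip1* and *Ahsa1*, cochaperones that load HSP90 and speed its cycle, are among these 23. Among all genes, 15.0% of intervals lay above 1 and 16.6% below.

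The 14 subunits of TRiC, the cytosolic chaperonin of actin and tubulin, and of prefoldin, which delivers clients to it, had 12 point ratios below 1. Their summed ratio was 0.939 (0.919 to 0.960) and their median log2 ratio -0.11, against -0.0028 over all genes. Among all genes, 16.6% of intervals lay below 1 and 15.0% above, and among those with 1000 or more counts 23.4% and 21.8%. For the 14 subunits, the interval lay below 1 for 5 and above 1 for 0. Among these were the prefoldin genes *Pfdn6* (391 and 321 counts, ratio 0.767, 0.659 to 0.891) and *Pfdn2* (247 and 199, ratio 0.752, 0.621 to 0.910) and the TRiC genes *Cct7* (1726 and 1635, ratio 0.885) and *Cct8* (2366 and 2331, ratio 0.920). *Pfdn6*, with 1193 exonic bases, falls in the class of short genes described for *Hspe1*.

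The 15 other mitochondrial chaperones and proteases had a summed ratio of 0.966 (0.945 to 0.989), an interval that holds the all-gene value of 0.977, and a median log2 ratio of -0.068. The interval lay below 1 for 4, including *Clpp*, the peptidase of the matrix protease ClpXP (681 and 636 counts, ratio 0.872, 0.781 to 0.973), *Afg3l2*, a subunit of an inner membrane protease (2401 and 2398, ratio 0.933, 0.881 to 0.987), and *Grpel1*, the exchange factor of mortalin (1460 and 1442, ratio 0.922, 0.857 to 0.993). It was above 1 for the protease gene *Yme1l1* (2239 and 2557, ratio 1.07). *Trap1*, the mitochondrial HSP90, had 965 and 986 counts (ratio 0.954, 0.872 to 1.04). Among all genes, 16.6% of intervals lay below 1 and 15.0% above, and among those with 1000 or more counts 23.4% and 21.8%. None of the 15 passed 1.2-fold with the whole interval, against 3.39% of all genes lower and 2.73% higher.

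The 23 other ER folding genes had a summed ratio of 0.958 (0.947 to 0.970), below that of the ER chaperones, and a median log2 ratio of -0.042. Intervals lay below 1 for 7 and above 1 for 2, against 16.6% and 15.0% of all genes. Among all genes with 1000 or more counts the shares were 23.4% and 21.8%. Of the 23 point ratios, 10 were above 1 and 13 below. *P4hb*, encoding the classical protein disulfide isomerase, was lower, with 21126 (WT) and 20627 (FRβ KO) counts (ratio 0.912, 0.894 to 0.929). It had the most counts of the list, which summed to 55090 and 56538, and the sum without it was not computed. *Pdia5* was the 1 gene of the list past 1.2-fold, with 57 and 32 counts (ratio 0.524, 0.329 to 0.822). *Sec61b*, a subunit of the channel through which proteins enter the ER, had 213 and 158 (ratio 0.693, 0.560 to 0.855) and 1271 exonic bases. *Sdf2*, a relative of *Sdf2l1*, had 1219 and 1117 (ratio 0.856, 0.788 to 0.929). The 12 measured ER-associated degradation genes were even, with 6 above and 6 below 1 and a summed ratio of 0.998 (0.982 to 1.02). Past 1.2-fold lay 0 of these 12 genes, against 3.39% of all genes lower and 2.73% higher. Intervals of these 12 genes lay below 1 for *Selenos* (ratio 0.867) and *Edem3* (0.922) and above 1 for *Ubxn4* (1.075) and *Edem2* (1.06).

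By summed ratio, the largest shift among these lists was in 13 other signalling genes of the unfolded protein response (0.848, 0.833 to 0.863). All genes had a summed ratio of 0.977. *Atf4* had the most counts of the list, which summed to 26646 and 24190, and sums without *Atf4* or *Wfs1* were not computed. The median log2 ratio was -0.12, near the -0.11 of TRiC and prefoldin. Intervals lay below 1 for 7 and above 1 for 0, against 16.6% and 15.0% of all genes. Among all genes with 1000 or more counts the shares were 23.4% and 21.8%. *Wfs1*, encoding wolframin of the ER membrane, had 2820 (WT) and 1819 (FRβ KO) counts (ratio 0.602, 0.568 to 0.639) and passed 1.2-fold. Of the 13 point ratios, 9 were below 1 and 4 above. *Atf4*, the transcription factor translated when PERK or a related kinase acts, had 9449 and 8191 counts (ratio 0.809, 0.786 to 0.834), *Ddit3*, encoding CHOP, 1261 and 1081 (ratio 0.800, 0.737 to 0.869), and *Ppp1r15a*, encoding GADD34, 1530 and 1339 (ratio 0.817, 0.759 to 0.880). *Eif2ak3*, encoding PERK, had 559 and 618 (ratio 1.03, 0.919 to 1.16). *Ppp1r15b*, a relative of *Ppp1r15a*, had a ratio of 0.923 (0.888 to 0.959), and *Trib3* had 449 and 382 counts (ratio 0.794, 0.691 to 0.913). *Chac1*, a target of ATF4, had 3 and 8 counts (ratio 2.49, 0.598 to 14.6), with the WT value at the floor of 3 counts.

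**Figure D4:**
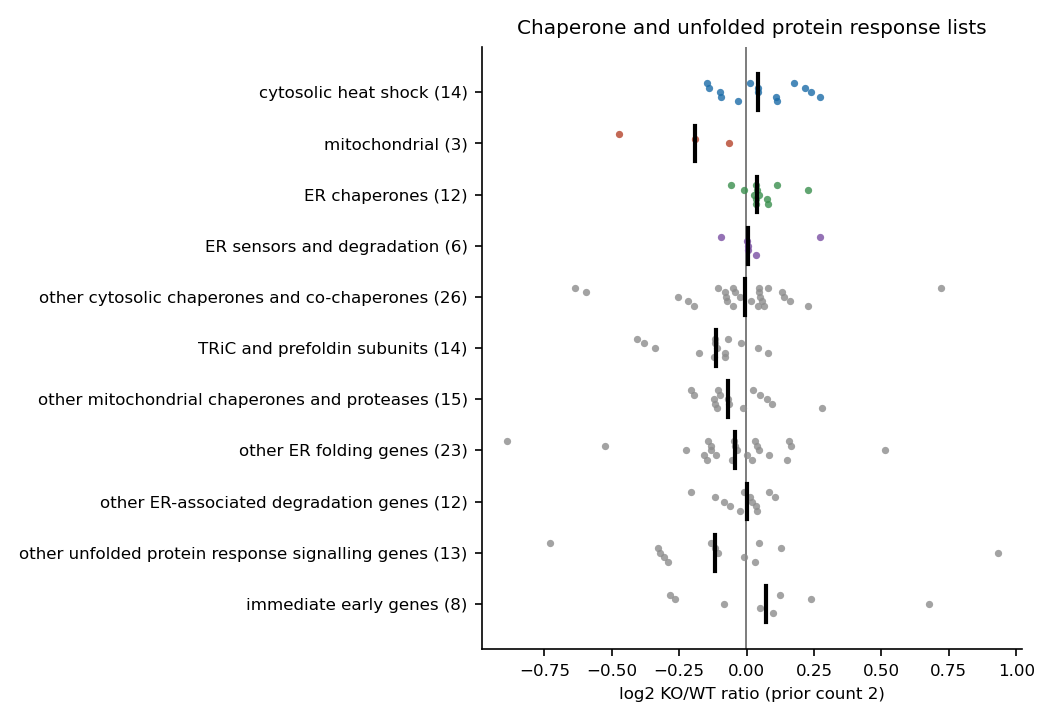
log2 KO/WT ratio (prior count 2) of each measured gene (points, with the number measured per list in brackets) and the median of its list (black bars), with a grey line at the median of all genes (-0.0028). The mitochondrial genes (median -0.19), the TRiC and prefoldin subunits (-0.11) and the other unfolded protein response signalling genes (-0.12) have medians to the left of the line, and the ER chaperones (0.04) lie close together beside it.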

How the data were processed

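The table deposited by the authors gives whole, unscaled read counts for each Ensembl gene in 2 libraries. According to the methods, paired-end reads of 150 bp were trimmed by the authors' sequencing provider, HISAT2 placed them on mm10, and reads were totalled by gene. Not given in the sources used here are the program, annotation and strand setting of the counting and the meaning of FA_N in the sample names. The labels name regular RPMI medium, and the methods name regular or folate deficient. Symbols, places and exon lengths came from GENCODE M21 (GRCm38), which lacked 37 identifiers, and for a symbol with several identifiers the deepest was taken. TMM scaling (edgeR 4.0.16 under R 4.3.3) gave an FRβ KO library size 1.07 times that of WT. KO/WT ratios carry exact (Clopper-Pearson) 95% intervals, and ratios between genes the exact conditional interval (scipy 1.17.1). A floor of 3 counts corresponds to 0.161 (WT) and 0.150 (FRβ KO) CPM. Reads carried no molecular identifiers, and intervals cover counting error only.

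A gene was called past 1.2-fold or 2-fold when its whole interval lay there, among genes with at least 10 counts. Log2 medians used a prior count of 2. The study's edgeR cutoffs were not applied, since 1 library gives no dispersion. Copies were sought with blastn 2.17.0, at 95% identity over at least 150 bases. All 36 genes were described, and of each other list up to 4 genes whose intervals kept furthest from 1. *Trap1*, *Stip1*, *Ahsa1*, *Eif2ak3*, *Ppp1r15b*, *Trib3* and *Chac1* were named for their role after values were seen. The genes and lists were chosen with earlier results of these data known, and the counts of intervals above, below or within 1.2-fold of 1, the ratios between genes and the length classes were added after seeing the data. Protein sequences were not used here. Alternatives were size factors of DESeq2 1.42.0, scaling by upper quartile or by total counts, a 99% interval, limits of 1.1 and 1.5-fold, filters of 1 and 50 counts, and prior counts of 0.125 and 5.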

Additional observations from a re-analysis of the deposited data

How the results depend on the processing

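Upper quartile and DESeq2 scaling changed no 1.2-fold call, whereas scaling by total counts raised every log2 ratio by 0.034. With total counts the summed ratio became 0.999 for the cytosolic genes, 1.06 (1.056) for the ER chaperones and 1.02 (1.018) for the ER sensor and degradation genes, and the number of genes over 1.2-fold lower fell to 0, since the ratio of *Hspe1* became 0.736. That number was also 0 with a 99% interval and with a 1.5-fold limit. Without *Hsp90ab1* the cytosolic sum turned to 1.02 (1.016). With total counts the intervals above 1 rose from 8 to 11, with *Hspa5*, *Pdia3* and *Hspa14* added, those below 1 went from 5 to 4, without *Sel1l*, and those within 1.2-fold from 25 to 24. Of 75 recomputed group sums, medians and counts, these 3 counts included, 68 moved by at most 1.5 times (counts) or stayed within the interval or spread of the value. Of 35 genes, 2, *Dnaja1* and *Dnajb11*, crossed 1 by point ratio under another scaling. No paired analysis was possible because each genotype has 1 library, and for the same reason no library could be left out. Depth limits the inducible *Hspa1a* and *Hspa1b*, with 60 to 78 counts each, and *Hspb1*, with at most 2.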

Other observations

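Of the 9 immediate early genes, transcripts that rise within minutes of handling or stimulation, 8 were measured. Their summed level was 1592 (WT) and 1454 (FRβ KO) CPM (ratio 0.913, 95% counting interval 0.899 to 0.928), while the median log2 ratio was 0.07, so the sum and the median differed in sign. *Egr1* had 87 and 150 counts (ratio 1.61, 1.23 to 2.12) and *Dusp1*, a phosphatase that ends MAP kinase signals, 2273 and 2875 (ratio 1.18, 1.12 to 1.25). *Atf3* had 13862 and 12340 counts (ratio 0.831, 0.811 to 0.852) and *Jun* 2518 and 2212 (ratio 0.820, 0.774 to 0.869). The genes did not move in 1 direction, and *Hspa1a* and *Hspa1b*, which are induced by heat and by handling, summed to 130 and 148 counts.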
